A study of Mus musculus with 2 samples.

Results

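Cdc42 and 9 genes of its effectors and of GTPase regulators were followed through thymocyte clusters of WT and KO mice. The 10 genes were taken from a list of names, with no measured value in the rule, though earlier results of these data were known. All 10 were found among the 20282 genes of the count matrix. They were Cdc42 itself, the inhibitors Arhgdia and Arhgdib, the exchange factors Dock2, Dock8 and Vav1, and the effectors Was, Pak2, Cdc42se1 and Cdc42se2. The mice were 6 weeks old. The thymi of 5 Cdc42f/f mice (WT) made up 1 library, and those of 5 littermates that also carried CD4Cre (KO) made up the other, and in both the 3′ ends of transcripts were counted as unique molecular identifiers (UMIs) in droplets. Both genotypes carry the floxed allele, and Cre is driven by the CD4 promoter, so that exon 2 of Cdc42 is removed from the double-positive (DP) stage onwards in KO thymocytes. Cells were assigned to a genotype by the tag WT or KO that their names carry, although those names read Cdc45 where Cdc42 would belong. With 1 library per genotype no test between genotypes was possible.

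Cdc42 is a small GTPase that cycles between a GDP-bound resting form and a GTP-bound form that recruits effectors and drives actin assembly, filopodia and cell polarity. Guanine nucleotide exchange factors (GEFs) load it with GTP, GTPase-activating proteins (GAPs) switch it off, and GDP dissociation inhibitors (GDIs) hold it in the cytosol. In T cells, these proteins shape the cortical actin that migration, selection in the thymus and contact with antigen-presenting cells depend on.

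The segment that Cre removes and the segment through which effectors recognise Cdc42 are shown here because the design turns on the first and the choice of effectors on the second. Cdc42 lies on chromosome 4 of GRCm38 (chr4:137319696-137357720, minus strand), and its exon 2 holds the start of the coding sequence, 105 bases at chr4:137335975-137336079. Capitals in the coding part of exon 2, read from the GENCODE vM21 transcript, mark the codons of the P-loop, the nucleotide-binding loop of the GTPase:
Cdc42 exon 2: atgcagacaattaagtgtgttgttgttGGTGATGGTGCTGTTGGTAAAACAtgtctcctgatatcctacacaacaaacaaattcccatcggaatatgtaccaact
The last exons of the 2 annotated coding transcripts lie 13355 and 14782 bases of genome beyond exon 2, so that a 3′ UMI says nothing about whether its transcript held exon 2. The 4 effectors bind GTP-loaded Cdc42 through a short CRIB motif, and the coding bases of that motif are given with capitals for the codons of its consensus positions, some of which allow more than 1 residue. The Pak2 stretch lies at chr16:32044508-32044549 (minus strand, exon 3), the Was stretch is split between exons 7 and 8 within chrX:8086954-8087783 (minus strand), the Cdc42se1 stretch lies at chr3:95232582-95232623 (plus strand, exon 3) and the Cdc42se2 stretch at chr11:54723604-54723645 (minus strand, exon 4):
Pak2: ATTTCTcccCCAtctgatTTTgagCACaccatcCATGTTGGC
Was: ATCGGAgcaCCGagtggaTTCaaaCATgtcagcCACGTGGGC
Cdc42se1: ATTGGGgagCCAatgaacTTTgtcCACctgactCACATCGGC
Cdc42se2: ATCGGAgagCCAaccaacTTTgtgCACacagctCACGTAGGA
All 4 stretches are 42 bases long. Cdc42se1 and Cdc42se2, small adaptors of 80 and 84 codons, of which this motif takes 14, shared 30 of the 42 bases. The other pairs shared 21 to 23.

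The deposited clustering holds 19 clusters, of which 16 (clusters 0 to 15) had at least 50 cells in each library. Clusters are referred to by number and by a leading marker. Clusters 0 to 4 carry Rag1, the recombinase gene of DP thymocytes, and are summed as the Rag1 clusters. Clusters 5 and 9 hold the highest level of 8 of 10 early single-positive (SP) markers, among them Cd5 and Cd69, and are summed as the Cd5 clusters. Cluster 6 is led by Itm2a, cluster 7 by Ms4a4b, S1pr1 and Klf2 (the highest level of 6 of 12 late SP markers), cluster 8 by Lars2, clusters 10 to 13 by proliferation genes, cluster 14 by Myl10 and all 10 markers of double-negative (DN) and γδ cells, cluster 15 by Cd74 and cluster 16 by Apoe. The WT-labelled library held 6115 cells with 29706197 UMIs and the KO-labelled library 7568 cells with 37920214 UMIs. The libraries shared 17 cell barcodes, 0.278% of those of the WT-labelled library. Levels are counts per 1000000 UMIs (CPM) of the summed cells of a cluster, and they are not scaled to gene length, so that levels were compared between clusters and libraries and not between genes. Parentheses after a level or a ratio hold an exact 95% interval, which covers counting error only. In the annotation, Cdc42se1 overlaps Mllt11, Cdc42se2 overlaps Gm12227 and the pseudogene Gm12229, Arhgdib overlaps Pde6h and Dock2 overlaps Fam196b and 4930403D09Rik. Only Gm12229 lies on the same strand as the gene it overlaps, so that the counts of Cdc42se2 could hold its reads. The other neighbours lie on the opposite strand. Their reads could be held only if the counting ignored strand, which is not known here.

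Cdc42 was measured in every cluster of both libraries, the library labelled KO included. Over all cells it was at 398 CPM (391 to 405) under the label WT and at 356 CPM (351 to 363) under the label KO, which gives a log2 KO/WT ratio (KO-labelled divided by WT-labelled) of -0.16 (-0.19 to -0.12). In the Rag1 clusters the log2 ratio was -0.16 (-0.22 to -0.098), and in the Cd5 clusters -0.25 (-0.37 to -0.12). Neither reached 0.32, the log2 limit used here, which corresponds to a level 25% higher. In cluster 7, the most mature of these stages by its markers, Cdc42 was higher in the KO-labelled library, at 581 CPM (550.5 to 614) against 447 CPM (419.9 to 475), and the log2 ratio was 0.38 (0.26 to 0.50). These UMIs lie outside the deleted exon, so that neither the lower nor the higher levels check the labels. The libraries are therefore called WT-labelled and KO-labelled throughout, and every direction rests on the labels.

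In the WT-labelled library, Cdc42 stood at nearly the same level in all 5 Rag1 clusters, from 350.3 CPM in cluster 2 to 365 CPM in cluster 4, and no neighbours among them differed beyond counting error. It was higher in the Cd5 clusters, at 455 CPM (425 to 486), which is 1.27 (1.18 to 1.37) times the level of the Rag1 clusters. In cluster 6 it was at 397 CPM (375 to 419.8) and in cluster 7 at 447 CPM (419.9 to 475), or 0.15 (0.055 to 0.24) and 0.32 (0.22 to 0.42) above the Rag1 level on the log2 scale. The proliferating clusters ran from 373 CPM in cluster 12 through 384 and 464 CPM to 503 CPM in cluster 13. Among the 16 clusters the highest level was that of the Cd74 cluster 15, at 627 CPM (527 to 741), and the next lowest above cluster 8 was the Myl10 cluster 14, at 272 CPM (229 to 319.8). The Apoe cluster 16, with only 30 cells and 43 UMIs of Cdc42, was higher still at 1017 CPM (736 to 1369.8). Of the 15 steps between neighbours in this order, 3 exceeded counting error: from cluster 8 to 14, from 14 to 2 and from 13 to 15. In the KO-labelled library the order was alike (Pearson r of log2(CPM + 10) 0.88 over the 16 clusters, which share genes, depth and base composition), but cluster 7 stood at its top, where it lay 0.86 (0.77 to 0.95) above the Rag1 level on the log2 scale.

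**Figure D1:**
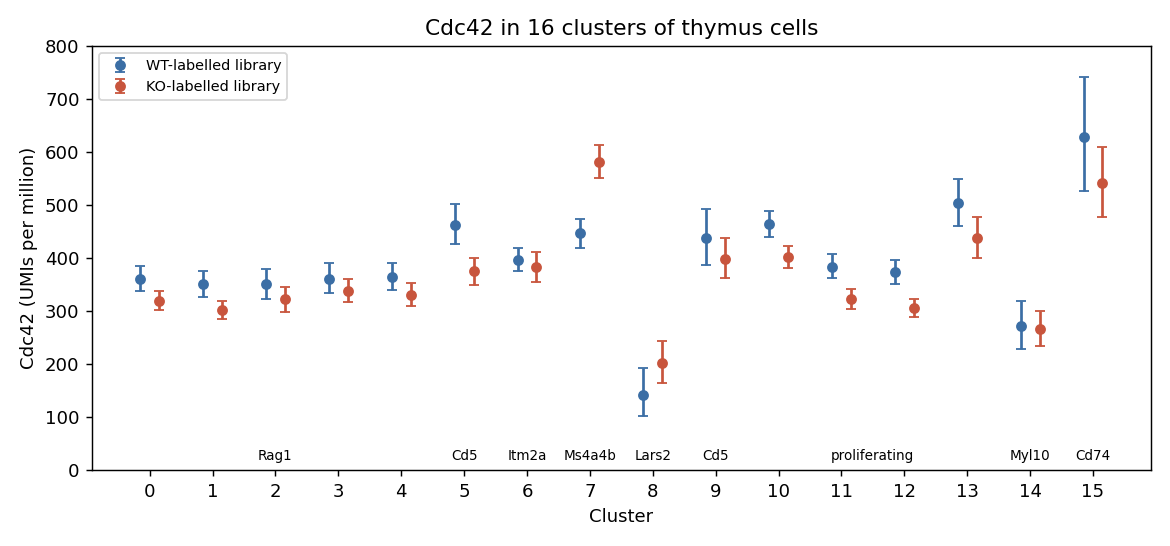
Cdc42 level in CPM (y axis) in the 16 clusters with at least 50 cells in each library (x axis), with a leading marker or state printed above each cluster number; points are levels of the WT-labelled (blue) and KO-labelled (red) library and bars are exact 95% Poisson intervals. The red point lies above the blue one in clusters 7 and 8 and below it in the other 14.

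Cluster 8 had the lowest Cdc42 level in both libraries, on 41 and 103 UMIs, at 141 CPM (102 to 192) and 201 CPM (164 to 244). Its cells were shallow (median 956 and 1199.5 UMIs) and rich in mitochondrial transcripts (median 18.6% and 15.7% of UMIs). With only its cells of up to 10% mitochondrial UMIs (47 and 86 cells), the log2 difference from the Rag1 clusters in the WT-labelled library went from -1.32 (-1.82 to -0.90) to -0.054. In that library the low level was thus not seen once cells of over 10% mitochondrial UMIs were left out. The value without them has no interval here and rests on 47 of 250 cells and on part of the 41 UMIs.

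Cluster by cluster, Cdc42 was lower in the KO-labelled library in 14 of 16 clusters, and the interval lay below 0 in 8 of them: clusters 0, 1, 4, 5, 10, 11, 12 and 13. The lowest log2 ratio was that of cluster 5, -0.31 (-0.46 to -0.15), and the proliferating clusters 10 to 13 lay between -0.29 and -0.20. In cluster 14, led by DN and γδ markers, the log2 ratio was -0.035 (-0.33 to 0.27). The interval lay above 0 in cluster 7 alone, and cluster 8 had a log2 ratio of 0.50 (-0.027 to 1.07) with an interval that reached below 0.

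Marker lists also differed between the libraries. The late SP markers of the Rag1 clusters were at 1842 CPM under the label WT and 2225 CPM under the label KO (10 of 12 genes higher in the latter), the early SP markers at 1768 and 1971 CPM and the erythroid markers at 16.2 and 0.976 CPM. In the Cd5 clusters the DP markers were at 4229.6 and 4884 CPM (10 of 10 higher in the KO-labelled library) and the early SP markers at 6601 and 6114 CPM (3 of 10). Among the proliferating clusters, cluster 13 had erythroid markers at 1719.7 and 0.887 CPM and B cell markers at 562 and 1048 CPM, and cluster 12 dendritic markers at 950.2 and 165 CPM, each given for the WT-labelled library first.

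In cluster 7 the summed DP markers were at 1491 CPM under the label WT and 1984 CPM under the label KO (9 of 10 genes higher in the latter), the DN and γδ markers at 297 and 449 CPM (6 of 10), the early SP markers at 1541 and 1721 CPM (5 of 10) and the late SP markers at 9419 and 10122 CPM (7 of 12). In cluster 6 the early SP markers were at 4528 and 6289.6 CPM (10 of 10 higher in the KO-labelled library) and the late SP markers at 5486 and 4613 CPM (4 of 12). Macrophage markers were low but higher in the KO-labelled library, at 7.21 and 31.9 CPM in cluster 6 and 11.2 and 43.2 CPM in cluster 7, with 3 and 1 of 9 at 0 UMIs in the 2 libraries of cluster 7. Summed markers of B cells (222 and 225 CPM), dendritic cells (118 and 138 CPM), thymic epithelium (29.6 and 27.8 CPM), erythroid cells (7.30 and 1.76 CPM), proliferation (490.4 and 452 CPM) and housekeeping genes (11272 and 9694 CPM) in cluster 7 differed by less than the macrophage list or were lower in the KO-labelled library. Gene by gene, 5 of the 8 housekeeping genes were higher in the KO-labelled library, with a median log2 ratio of 0.20. In cluster 8, the summed macrophage markers were at 104 and 999 CPM. Only 2 of these 9 genes were higher in the KO-labelled library, and 5 of 9 had 0 UMIs in it. B cell markers in cluster 8 were at 117 and 490.5 CPM (9 of 9 higher in the KO-labelled library). In cluster 15 they were at 5733 and 44533 CPM (9 of 9). When cells with a UMI of a γδ constant region gene (Trdc, Trgc1, Trgc2 or Trgc4) were left out, a choice made after the data were seen, the Cdc42 log2 ratio in cluster 7 was 0.38. The part of the other marker lists in the ratios was not tested.

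Quantities that bear on scaling differed between the libraries as well. Ribosomal protein genes took 30.8% of the UMIs of cluster 7 under the label WT and 21.9% under the label KO, and 24.1% and 17.6% of those of cluster 6. Cells of cluster 7 held a median of 6738 and 5032 UMIs. The median log2 ratio of all genes with at least 100 UMIs was 0.23 in cluster 7 and 0.15 in cluster 6, against 0.042 in the Rag1 clusters and 0.026 in the Cd5 clusters. Relative to these medians, Cdc42 stood at 0.15 in cluster 7, -0.21 in cluster 6, -0.20 in the Rag1 clusters and -0.28 in the Cd5 clusters. Cdc42 was thus above the median gene in cluster 7 and below it in the 3 other comparisons.

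A gene is counted as higher or lower here when its log2 KO/WT ratio passes 0.32 in either direction and it has at least 100 UMIs over both libraries, a limit all 10 genes met in all 4 comparisons. In the Rag1 clusters 0 of the 10 were higher and 0 lower, where 8.79% of 9907 genes were higher and 2.87% lower. In the Cd5 clusters, too, 0 of 10 passed in either direction, where 11% of 6186 genes were higher and 4.54% lower. In cluster 6, 2 of 10 were higher (Cdc42se2 and Vav1) and 0 lower, where 25% of 5793 genes were higher and 6.61% lower. In cluster 7, 6 of 10 were higher (Cdc42, Cdc42se1, Cdc42se2, Arhgdia, Arhgdib and Dock2) and 0 lower, where 39.7% of 5414 genes were higher and 7.91% lower. With TMM factors, which rescale the libraries by a trimmed mean of gene ratios, 0 of 10 passed in cluster 6, where 10.1% of genes were then higher and 13.2% lower. In cluster 7, 2 of 10 then passed, Arhgdia and Dock2, where 15.3% of genes were higher and 20.2% lower. The median log2 ratio of the 10 genes was 0.37 in cluster 7 and 0.22 in cluster 6, beside the all-gene medians of 0.23 and 0.15.

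**Figure D2:**
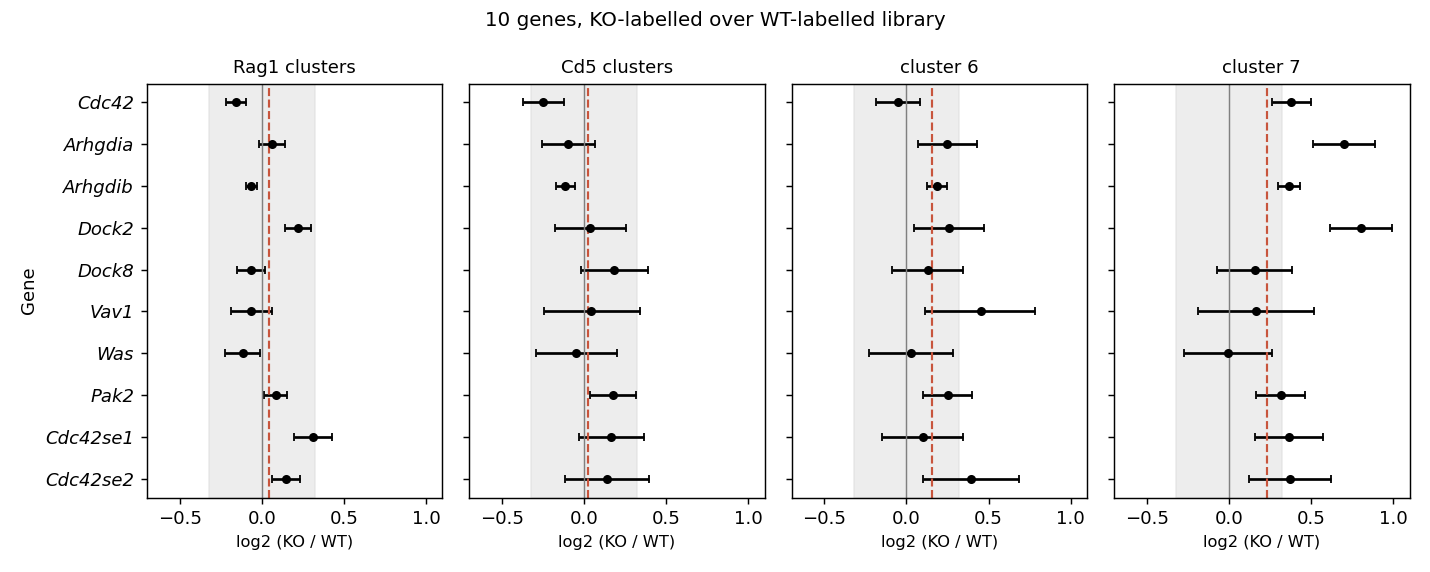
log2 KO/WT ratio (x axis) for the 10 genes (y axis) in the summed Rag1 clusters, the summed Cd5 clusters, cluster 6 and cluster 7; bars are exact 95% conditional binomial intervals, the grey band is within 0.32 of 0 and the dashed red line is the median of all genes with at least 100 UMIs. Cdc42 lies left of 0 in the first 3 panels and at 0.38 in the last, and Dock2 and Arhgdia lie farthest right in cluster 7.

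The GDIs keep Cdc42 and its relatives soluble and inactive, Arhgdia in most tissues and Arhgdib mainly in blood cells. Arhgdib (chr6:136923655-136941899, minus strand) had 7 of 15 steps between neighbouring clusters of the WT-labelled library beyond counting error, a number that also depends on its UMIs, the most of the 10 genes. Its level was 1237 CPM (1216 to 1258) in the Rag1 clusters, 2101 CPM (2037 to 2167) in the Cd5 clusters, 1678 CPM (1632 to 1724) in cluster 6 and 1424 CPM (1376 to 1474) in cluster 7, highest at the Cd5 stage and lower at each later one. The lowest levels were 362 CPM (296 to 439) in cluster 8 and 640.3 CPM (612 to 669.9) in the proliferating cluster 12. In the KO-labelled library Arhgdib was at 1183, 1942, 1910.0 and 1833 CPM in the same 4 stages, and the Cd5 and later stages lay closer together than in the WT-labelled library. The log2 ratios were -0.064 (-0.096 to -0.032), -0.11 (-0.17 to -0.056), 0.19 (0.13 to 0.25) and 0.36 (0.30 to 0.43). Relative to the all-gene median the ratios came to -0.11 and -0.14 in the Rag1 and Cd5 clusters and to 0.033 and 0.13 in clusters 6 and 7.

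Arhgdia (chr11:120578104-120581624, minus strand) was at 199.6 CPM (191 to 208) in the Rag1 clusters of the WT-labelled library, 262 CPM (239.9 to 286) in the Cd5 clusters and 201 CPM (185 to 217) in cluster 6. In cluster 7 it was at 162 CPM (146 to 179) on 377 UMIs, against 263 CPM (243 to 285) on 597 UMIs when the label was KO. In cluster 7 Arhgdia thus stood below its Rag1 level in the WT-labelled library, at 0.812 (0.725 to 0.905) times, and above it in the KO-labelled library, at 1.26 (1.15 to 1.38) times, although with totals that left out ribosomal protein and mitochondrial genes the former difference came to -0.019 on the log2 scale. The log2 ratio between libraries in cluster 7 was 0.70 (0.51 to 0.89), or 0.47 above the all-gene median, and it stayed positive, from 0.44 to 0.97, in all 10 alternatives. In the Rag1 clusters, the Cd5 clusters and cluster 6 it was 0.065 (-0.014 to 0.14), -0.096 (-0.26 to 0.067) and 0.25 (0.070 to 0.43), the last of which ran from 0.081 with TMM factors to 0.85 in cells thinned to 1000 UMIs. Over the 16 clusters of the WT-labelled library, Arhgdia was the gene of this group whose level went most closely with that of Cdc42 (r = 0.90, and 0.83 in the KO-labelled library). Both genes were lowest in the mitochondria-rich cluster 8 in each library, and these r include it.

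**Figure D3:**
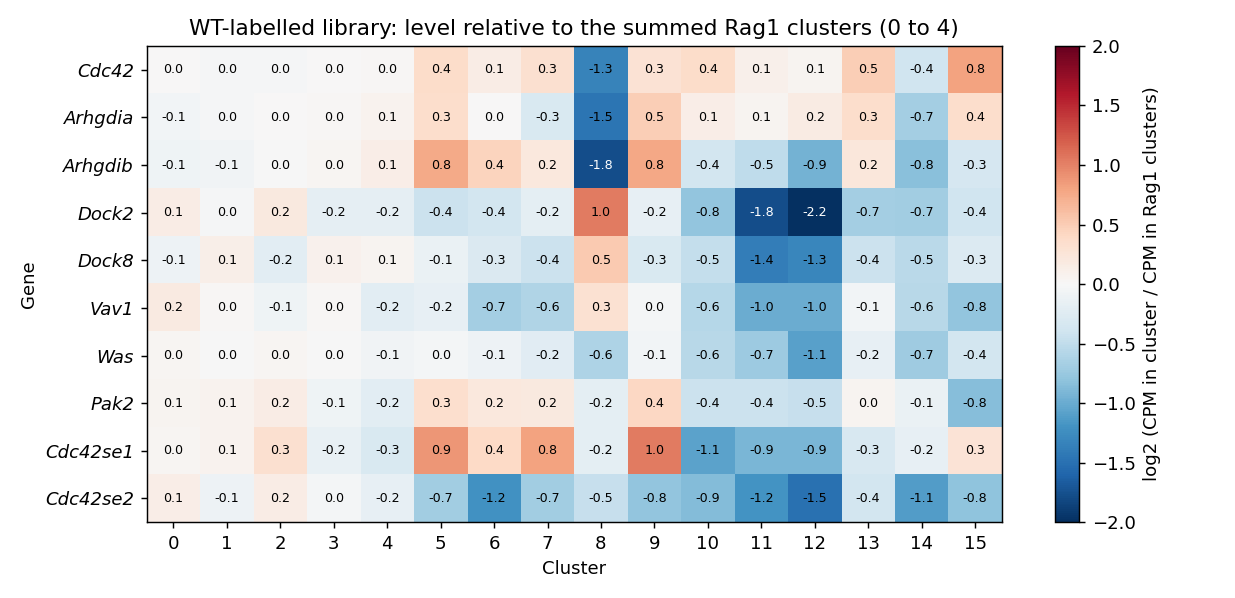
Heat map of the 10 genes (rows) in 16 clusters (columns) of the WT-labelled library; color and printed value are the log2 ratio of the level in a cluster to that in the summed Rag1 clusters 0 to 4. Cdc42se1 and Arhgdib are higher in the Cd5 clusters 5 and 9, Cdc42se2 is lower in every cluster after the Rag1 clusters, and Dock2 is lowest in clusters 11 and 12 and highest in cluster 8.

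Dock2 and Dock8 are large exchange factors of the DOCK family. Dock2, a Rac activator of lymphocytes that drives their migration, lies at chr11:34226815-34783892 (minus strand) and Dock8, a Cdc42 activator that holds migrating lymphocytes together, at chr19:24999534-25202432 (plus strand). Vav1 (chr17:57279100-57328031, plus strand) is the exchange factor that acts below the T cell receptor. In the WT-labelled library all 3 were lower in the Cd5 clusters, cluster 6 and cluster 7 than in the Rag1 clusters, though Vav1 in the Cd5 clusters within counting error, and for Dock2 in cluster 7 the sign turned, to 0.092, with totals that left out ribosomal protein and mitochondrial genes.

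Dock2 was at 179.9 CPM (172 to 188) in the Rag1 clusters of the WT-labelled library, 142 CPM (126 to 160.4) in the Cd5 clusters, 139 CPM (126 to 153) in cluster 6 and 158 CPM (142 to 175) in cluster 7. It ranged more widely over the 16 clusters than any of the other 9 genes, 9.45-fold, from 39.1 CPM (32.3 to 46.9) in the proliferating cluster 12 to 369 CPM (303 to 446) in cluster 8. This range includes the shallow, mitochondria-rich cells of cluster 8, and the next highest level was 205 CPM in cluster 2. In the KO-labelled library Dock2 was higher in cluster 7, at 275 CPM (254 to 298) on 624 UMIs against 367. The log2 ratio of 0.80 (0.62 to 0.99), a ratio of 1.75 (1.53 to 1.99), was the largest of the 10 genes in any of the 4 comparisons and lay 0.57 above the all-gene median. In the 10 alternatives it ran from 0.54 to 0.82. In the Rag1 clusters Dock2 was also higher in the KO-labelled library, though by less, with a log2 ratio of 0.22 (0.14 to 0.30) overall and intervals above 0 in clusters 0, 1 and 2. In the Cd5 clusters the log2 ratio was 0.036 (-0.18 to 0.26), with the same sign in 6 of 10 alternatives and down to -0.32 in thinned cells. In cluster 6 it was 0.26 (0.044 to 0.47) and ran from 0.092 with TMM factors to 0.63 in thinned cells.

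Dock8 was at 175 CPM (167 to 183) in the Rag1 clusters, 154 CPM (137 to 173) in the Cd5 clusters, 144 CPM (130.4 to 158) in cluster 6 and 131 CPM (116 to 146) in cluster 7 of the WT-labelled library. The intervals of neighbouring later stages overlapped, and with totals that left out ribosomal protein and mitochondrial genes the log2 difference of cluster 7 from the Rag1 clusters went from -0.42 (-0.60 to -0.25) to -0.14. Between libraries its log2 ratio was -0.064 (-0.15 to 0.022) in the Rag1 clusters, 0.18 (-0.021 to 0.39) in the Cd5 clusters, 0.13 (-0.090 to 0.34) in cluster 6 and 0.16 (-0.072 to 0.39) in cluster 7. All 4 intervals held 0, and with TMM factors the sign turned in cluster 7 (-0.10). Beyond counting error were only cluster 9, with 0.40 (0.039 to 0.78), and cluster 10, with -0.31 (-0.52 to -0.11), in opposite directions. Dock2 and Dock8 went together over the 16 clusters (r = 0.93, and 0.85 in the KO-labelled library), while Cdc42 and Dock2 did not (r = -0.44 and -0.060). These r include cluster 8, of shallow cells rich in mitochondrial transcripts. In both libraries that cluster had the highest Dock2 and Dock8 and the lowest Cdc42.

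Vav1 was at 86.2 CPM (80.8 to 91.9) in the Rag1 clusters, 79.1 CPM (67.0 to 92.8) in the Cd5 clusters, 54.1 CPM (46.1 to 63.0) in cluster 6 and 56.7 CPM (47.4 to 67.2) in cluster 7. Its level in clusters 6 and 7 was 0.629 (0.528 to 0.741) and 0.660 (0.544 to 0.790) times that of the Rag1 clusters. Vav1 had the fewest UMIs of the 10 genes in these clusters (165 and 139 in cluster 6, 132 and 144 in cluster 7), and no neighbours in its order of clusters were apart beyond counting error in either library. In cluster 6 it was higher in the KO-labelled library, with a log2 ratio of 0.45 (0.11 to 0.78), and in cluster 7 the ratio was 0.16 (-0.19 to 0.52), which turned to -0.096 with TMM factors and to -0.70 in cells thinned to 1000 UMIs, on 26 and 19 UMIs.

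Was, the Wiskott-Aldrich syndrome protein of blood cells, carries the signal of Cdc42 to the Arp2/3 complex and lies on chromosome X (chrX:8081453-8090498, minus strand). It was the flattest of the 10 genes, with a 2.19-fold range over the 16 clusters of the WT-labelled library. Its level was 117 CPM (111 to 123), 114 CPM (99.0 to 129.8), 109 CPM (98.0 to 122) and 99.6 CPM (87.2 to 113) in the Rag1 clusters, the Cd5 clusters, cluster 6 and cluster 7 of that library. Lower levels were found in the proliferating clusters, down to 55.1 CPM (46.9 to 64.2) in cluster 12. The same 4 stages stood at 108, 109.9, 112 and 99.3 CPM in the KO-labelled library. Only in the Rag1 clusters did the interval exclude 0, with a log2 ratio of -0.12 (-0.22 to -0.0084). In cluster 7 the ratio was -0.0052 (-0.28 to 0.27), which is -0.23 relative to the all-gene median, and its sign varied with the setting.

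Pak2 is the p21-activated kinase of T cells, which GTP-bound Cdc42 and Rac switch on (chr16:32016290-32079342, minus strand). In the WT-labelled library it was at 254 CPM (244 to 263) in the Rag1 clusters, 326 CPM (301 to 352) in the Cd5 clusters, 295 CPM (276 to 314) in cluster 6 and 290.3 CPM (269 to 313) in cluster 7. Pak2 was thus higher in all 3 later stages than in the Rag1 clusters, by 0.36 (0.23 to 0.49), 0.22 (0.11 to 0.33) and 0.20 (0.072 to 0.32) on the log2 scale. The KO-labelled library had more Pak2 in 14 of 16 clusters, though the all-gene median ratio was itself above 0 in clusters 0 to 14. In all 4 stages the interval of Pak2 lay above 0. The log2 ratios were 0.085 (0.015 to 0.16), 0.18 (0.036 to 0.32), 0.25 (0.10 to 0.40) and 0.32 (0.17 to 0.46), none past the limit, and those of the Cd5 clusters and cluster 6 turned to -0.021 and -0.080 when every cell was thinned to 1000 UMIs. Against the all-gene median these came to 0.043, 0.15, 0.096 and 0.086.

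The adaptors Cdc42se1 and Cdc42se2, whose CRIB stretches shared the most bases, went opposite ways from the Rag1 to the Cd5 clusters. Cdc42se1 (chr3:95228732-95236409, plus strand) was at 86.9 CPM (81.4 to 92.6) in the Rag1 clusters of the WT-labelled library and 166 CPM (148 to 185) in the Cd5 clusters, 1.91 (1.68 to 2.17) times as high. Cdc42se2 (chr11:54717456-54787675, minus strand) was at 167 CPM (159 to 175) in the Rag1 clusters and 101 CPM (87.3 to 116) in the Cd5 clusters, a ratio of 0.607 (0.519 to 0.702). Cluster 6 had 115 CPM of Cdc42se1 and 72.1 CPM of Cdc42se2, and cluster 7 had 152 and 103 CPM, so that both were lower in cluster 6 than in the Cd5 clusters and higher again in cluster 7. In the step from the Rag1 to the Cd5 clusters the KO-labelled library kept both directions, with 1.73 (1.57 to 1.89) times the Rag1 level of Cdc42se1 in the Cd5 clusters and 0.602 (0.539 to 0.670) times that of Cdc42se2.

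Between libraries, both adaptors were mostly higher in the KO-labelled one, Cdc42se1 in 15 and Cdc42se2 in 14 of 16 clusters. The all-gene median ratio was also above 0 in clusters 0 to 14. For Cdc42se1 the log2 ratio was 0.31 (0.20 to 0.43) in the Rag1 clusters, just under the limit, with 88.9 against 116 CPM in cluster 0 and 70.3 against 95.8 CPM in cluster 4. It was 0.16 (-0.033 to 0.36) in the Cd5 clusters and 0.37 (0.16 to 0.57) in cluster 7. In cluster 6 it was 0.099 (-0.15 to 0.34) and turned to -0.069 with TMM factors. For Cdc42se2 the values were 0.15 (0.063 to 0.23), 0.14 (-0.11 to 0.40), 0.39 (0.099 to 0.68) and 0.37 (0.12 to 0.62) in the same order of stages, and the value of cluster 6 turned to -0.063 in thinned cells. The highest ratio of Cdc42se2, 0.77 (0.27 to 1.33), was found in the Myl10 cluster 14 and rests on 41 and 132 UMIs.

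**Figure D4:**
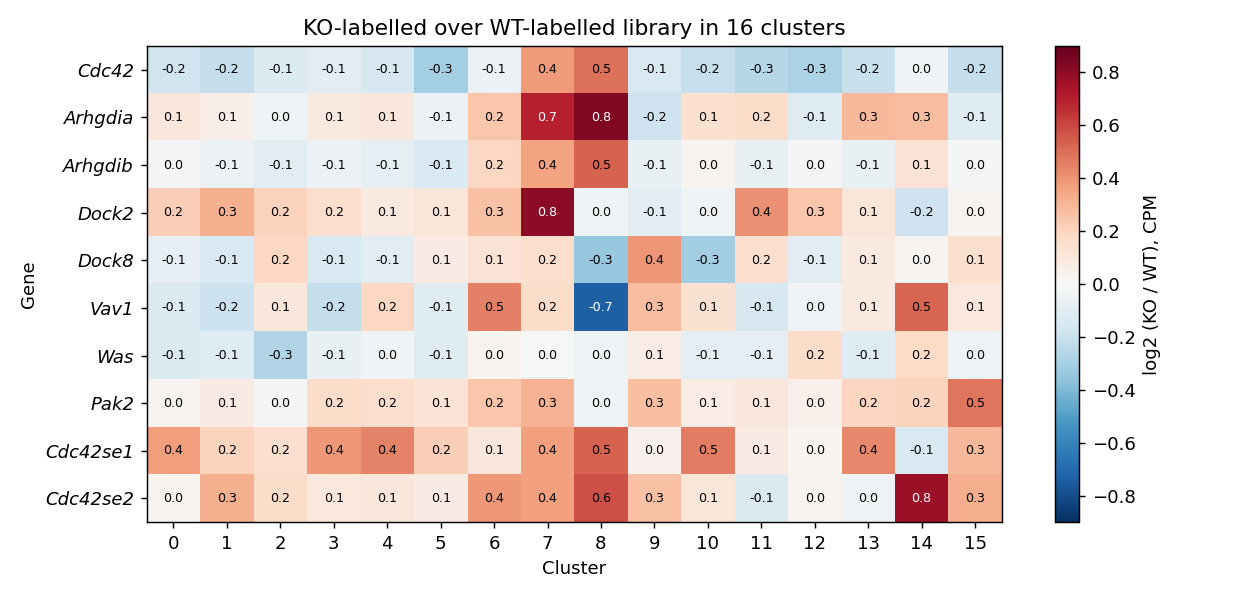
Heat map of the 10 genes (rows) in 16 clusters (columns); color and printed value are the log2 KO/WT ratio in CPM. Cdc42 is negative outside clusters 7 and 8, Cdc42se1 and Pak2 are mostly positive, and cluster 7 is positive for 9 of the 10 genes, of which Dock8 and Vav1 turn negative with TMM factors.

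Of 113 further genes of the pathway listed by role, 104 were in the matrix. The list was chosen with earlier results of these data known, so its counts are description only. In cluster 7, 34 of the 45 with at least 100 UMIs were higher in the KO-labelled library and 0 lower, or 75.6%, beside the 39.7% and 7.91% of all genes given above. Their median log2 ratio was 0.48, beside 0.23 for all genes. With TMM factors 15 of the 45 were higher and 1 lower, beside 15.3% and 20.2% of all genes. The highest were Limk2, a kinase that inactivates cofilin, with 1.11 (0.50 to 1.78), Iqgap2, a scaffold for Cdc42 and Rac, with 0.92 (0.59 to 1.27), and Diaph2, a formin, with 0.92 (0.39 to 1.48). The lowest were Arhgap9, a GAP of blood cells, with -0.15 (-0.36 to 0.063), Rhof with -0.041 (-0.41 to 0.33) and Rac2, the Rac of blood cells, with 0.010 (-0.080 to 0.10).

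Rhoa and Rac1 were also higher in cluster 7 and are named here after their values were seen. Of the 6 listed GTPases with at least 100 UMIs there, only these 2 passed the limit, 33.3% beside 39.7% of all genes. The median log2 ratio of the 6 was 0.11, beside 0.23 for all genes. Rhoa, which drives contraction, was at 376 CPM against 707 CPM in the KO-labelled library, with a log2 ratio of 0.91 (0.79 to 1.03). Rac1, which drives the actin sheets of spreading cells, was at 209 and 317 CPM, with 0.60 (0.43 to 0.77). Both exceeded the ratio of Cdc42 itself in that cluster.

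In cluster 6, 16 of 44 pathway genes were higher and 1 lower (36.4% and 2.27%, beside 25% and 6.61% of all genes), with a median log2 ratio of 0.22 beside 0.15 for all genes. With TMM factors 6 of 44 were higher and 4 lower, beside 10.1% and 13.2% of all genes. The highest were Tnk2, a kinase that binds Cdc42, with 0.66 (0.21 to 1.11), Arhgef2, a microtubule-bound GEF of Rhoa, with 0.57 (0.19 to 0.96), and the adaptor Nck1 with 0.57 (0.29 to 0.86). The lowest were Baiap2, which links Cdc42 to membrane curvature, with -0.49 (-1.04 to 0.022), and the GAPs Arhgap31 with -0.28 (-0.78 to 0.19) and Arhgap9 with -0.24 (-0.49 to 0.0070).

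In the earlier stages the pathway lay near the background. In the Rag1 clusters 4 of 68 genes were higher and 0 lower, 5.88% beside 8.79% of all genes, and in the Cd5 clusters 6 of 50 were higher and 2 lower, 12% and 4% beside 11% and 4.54%. Highest in the Rag1 clusters were Iqgap2 with 0.62 (0.37 to 0.88), Rhobtb2 with 0.49 (0.16 to 0.83) and Arhgap31, a GAP of Cdc42 and Rac, with 0.36 (0.21 to 0.51). Lowest there were Swap70, a Rac-linked actin regulator of lymphocytes, with -0.28 (-0.60 to 0.035), Vav2, a relative of Vav1, with -0.17 (-0.48 to 0.14) and the GAP Arhgap45 with -0.12 (-0.17 to -0.063). In the Cd5 clusters the highest were Rhof with 0.74 (0.13 to 1.43), the scaffold Iqgap1 with 0.50 (0.31 to 0.69) and the adaptor Nck1 with 0.38 (0.13 to 0.65). The lowest there were Fgd3, an exchange factor of Cdc42, with -0.59 (-1.17 to 0.014), Iqgap2 with -0.34 (-0.72 to 0.060) and Pak1, a relative of Pak2, with -0.27 (-0.76 to 0.24). Iqgap2 was thus higher in the KO-labelled library in the Rag1 clusters and in cluster 7 and lower in the Cd5 clusters, where its interval held 0.

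**Figure D5:**
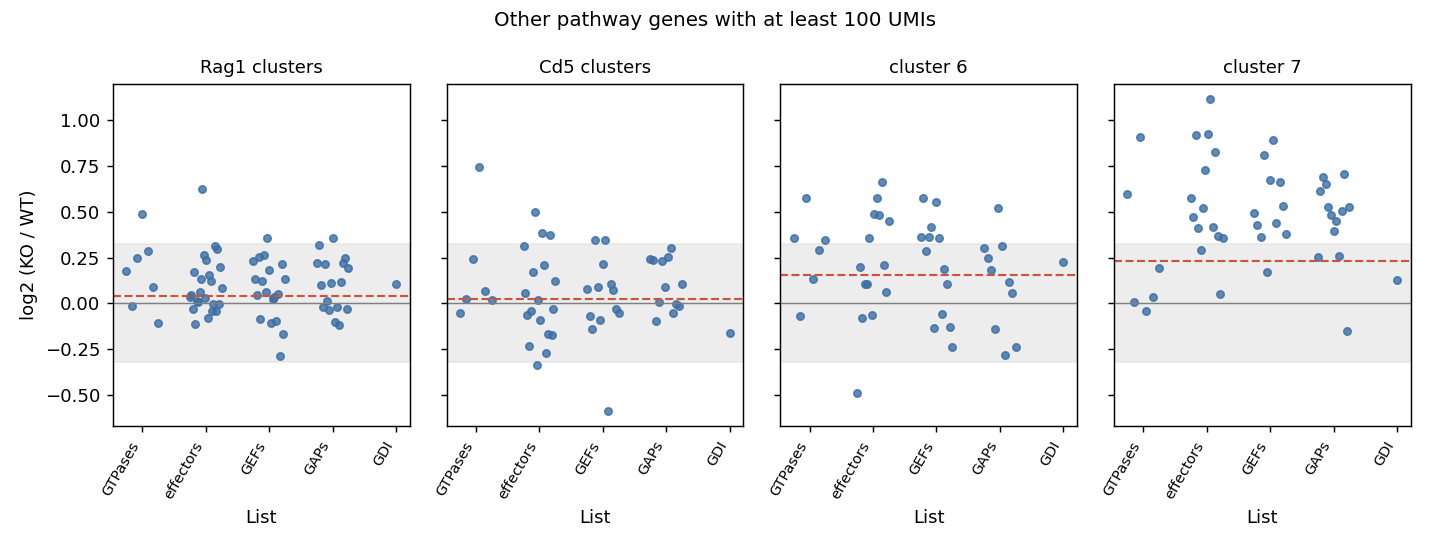
log2 KO/WT ratio (y axis) for the other listed genes of the pathway with at least 100 UMIs, by role (x axis), in the 4 comparisons; each point is a gene, the grey band is within 0.32 of 0 and the dashed red line is the median of all genes. Most points lie inside the band in the Rag1 and Cd5 clusters, and 34 of 45 lie above it in cluster 7.

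The genes whose level went most closely with each of the 10 over the 16 clusters of the WT-labelled library were sought among 6129 genes with a mean of at least 20 CPM, and the same pair was then followed in the KO-labelled library. For Cdc42 they were Reep5, an endoplasmic reticulum protein (r = 0.96, and 0.82 in the KO-labelled library), the 14-3-3 protein gene Ywhab (0.95 and 0.42) and the transaldolase gene Taldo1 (0.94 and 0.67). All pairs were chosen for a high r in the WT-labelled library, so that a lower r in the KO-labelled library does not by itself show a change. For Arhgdia they were Edf1 (0.97 and 0.81), Sub1 and Serf2. For Arhgdib they were Rap1b, a small GTPase that controls integrins (0.96 and 0.96), Rnaset2b and Arf5.

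Among the exchange factors, Dock2 went with Gm42418 (0.95 and 0.85), Zup1 and Gm44694. Dock8 went with Gpr107 (0.96 and 0.92), Krit1 and Gm49599, and Vav1 with Syne1 (0.96 and 0.53), Tnrc6c and Ubr2. Among the effectors, Was went with the adaptor gene Grap (0.96 and 0.89), Gpsm3 and the survival gene Mcl1. Pak2 went with Dok2, an adaptor below the T cell receptor (0.96 and 0.87), Pde4d and Cd96. Cdc42se1 went with the kinase gene Jak1 (0.93 and 0.85), Gimap5 and Dusp2, and Cdc42se2 with Ostm1 (0.95 and 0.88), Klf13 and Arl5c. Each r describes 16 points that share 1 library and its depth, and without cluster 8 between 1 and 2 of the 3 genes remained among the closest, or 0 for Dock2.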

How the data were processed

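Whole thymi of Cdc42f/f and Cdc42f/f CD4Cre mice were profiled by droplet-based 3′ single-cell RNA sequencing, with 1 pooled library per genotype. The submitters' processing notes name Cell Ranger 3.0.2, STAR, Seurat and mm10. The authors deposited a table of raw UMI counts per gene and cell after their own filter on cells, with a cluster for each cell; every value was a whole number and each cell's sum matched its deposited total. The matrix held 13683 cells and 20282 genes, which is fewer cells than the study's text states. How the authors treated strand and which annotation they used is not given in the sources used here, and no doublet caller was run.

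Counts were summed per cluster and library and divided by the summed total (counts per 1000000 UMIs, CPM). Ratios between libraries had 0.5 added to both sums, exact 95% Poisson intervals were given for levels and exact conditional binomial intervals for ratios, and both cover counting error only. With 1 library per genotype there is no replicate check, and no test was made. A gene counted as higher or lower past 1.25-fold with at least 100 UMIs over both libraries. The 10 genes, the pathway list and the marker lists (DP, early SP, late SP, proliferation, DN and γδ, B cell, macrophage, dendritic, thymic epithelial, erythroid and housekeeping genes) were chosen with earlier results of these data known. Named from the pathway list were the 3 highest and 3 lowest ratios of each comparison, and for each of the 10 genes the 3 genes with the highest Pearson r of log2(CPM + 10) over clusters of at least 50 cells. As alternatives, ribosomal protein and mitochondrial genes were left out of the totals, libraries were scaled by TMM (edgeR 4.0.16) or by the size factors of DESeq2 1.42.0, and the results were computed with other sets of cells, thinning to 1000 UMIs, the mean over cells, clusters at resolution 1.8 and, chosen after seeing the data, cells without γδ constant region UMIs. Scripts ran in Python 3.11.15 (numpy 2.4.6, scipy 1.17.1, pandas 2.3.3) and R 4.3.3 and were tested on simulated data. Sequences and coordinates came from GENCODE vM21 on GRCm38, in which all 10 genes matched by symbol.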

Additional observations from a re-analysis of the deposited data

Results flagged for a closer look

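The KO/WT ratio lay on opposite sides of 0 in different stages for Cdc42 and Arhgdib, with intervals that held 0 in none of the stages given here. For Cdc42 the log2 ratio was -0.16 in the Rag1 clusters, -0.25 in the Cd5 clusters and 0.38 in cluster 7. For Arhgdib it was -0.064 in the Rag1 clusters, -0.11 in the Cd5 clusters, 0.19 in cluster 6 and 0.36 in cluster 7. With 1 library per genotype the difference between stages was not tested. All 7 values kept their sign in the 10 alternatives.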

How the results depend on the processing

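No paired analysis was possible because each genotype is 1 library, and for the same reason no replicate could be left out. The Cdc42 log2 ratio in cluster 6 (-0.052) was -0.22 under TMM and -0.22 under DESeq2 scaling, -0.26 in thinned cells and 0.099 in clusters at resolution 1.8. In cluster 7 (0.38) it was 0.21 with totals without ribosomal protein and mitochondrial genes, 0.12 under TMM, 0.16 under DESeq2 scaling and 0.65 in thinned cells. The difference of cluster 7 from the Rag1 clusters in the WT-labelled library (0.32) was 0.60 with those reduced totals and 0.047 in thinned cells, and that of cluster 8 (-1.32) was -0.054 without cells over 10% mitochondrial UMIs. Cdc42se2 in cluster 6 (0.39) turned to -0.063 in thinned cells, which rested on 40 and 25 UMIs. Counts of pathway genes moved as follows. Percentages in parentheses are those of all genes, higher and then lower, in the same setting. In the Rag1 clusters (4 higher, 0 lower of 68) TMM gave 2 and 1 (6.55% and 3.95%). DESeq2 scaling also gave 2 and 1 there (6.36% and 4.13%). A minimum of 20 UMIs gave 10 and 2 of 84 (14.8% and 6.51%). A minimum of 400 UMIs gave 2 and 0 of 53 (3.85% and 1.30%), and 1.5-fold gave 1 and 0 of 68 (1.88% and 0.565%). In the Cd5 clusters (6 and 2 of 50) they were 14 and 5 of 70 at 20 UMIs (18.2% and 10.2%). At 400 UMIs they were 3 and 0 of 26 (4.31% and 1.52%), and at 1.5-fold 1 and 1 of 50 (2.23% and 0.420%). Without cells over 10% mitochondrial UMIs they were 7 and 1 of 49 (10.9% and 4.59%). In cluster 6 (16 and 1) they were 9 and 4 with reduced totals, 6 and 4 under TMM, 7 and 4 under DESeq2 scaling, 26 and 3 at 20 UMIs, 8 and 0 at 400 UMIs and 1 and 0 at 1.5-fold. In cluster 7 (34 and 0 of 45) they were 21 and 1 with reduced totals, 15 and 1 under TMM, 16 and 1 under DESeq2 scaling, 44 and 5 of 71 at 20 UMIs, 15 of 23 higher at 400 UMIs (33.4% of all genes) and 15 of 45 at 1.5-fold (15.1% of all genes). The cause of these shifts was not tested, except that fewer or more genes are tested when the minimum changes.

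Of the 40 ratios of the 10 genes in 4 stages, 28 kept their sign in thinned cells, 34 with DESeq2 size factors, 35 with TMM factors, 36 with reduced totals and all 40 without cells over 10% mitochondrial UMIs. Without cells with γδ constant region UMIs, 39 kept their sign. Vav1 had the fewest UMIs of the 10 genes in clusters 6 and 7, with 132 to 165 per library. Over the 4 stages and 10 alternatives it kept its sign in 35 of 40. Was and Dock8 kept theirs least often, in 30 and 32 of 40.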
